A study of Mus musculus with 4 samples.

Results

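Rn18s-rs5 is a stretch of mouse chromosome 17 that resembles 18S ribosomal RNA, the RNA of the small ribosomal subunit, and RefSeq lists it as a pseudogene (gene 110183). Its span in GRCm38 is chr17:39846354-39848202, which is 1849 nt. Chimeric peaks were taken for every miRNA from a window that ran from 4354 nt before its start to 1298 nt past its end, and no measured value entered that choice. The window held 1577 of the 93468 entries of the MOV control library and 1869 of the 100897 entries of the MOV mimic library, where 1 entry is 1 peak paired with 1 miRNA. All of them lay on the plus strand and inside Rn18s-rs5, so the rest of the window was empty, and the results concern an 18S-like sequence and no other segment of a 45S precursor. The mouse genome carries ribosomal RNA genes in many near-identical copies, and whether a read came from this copy or another cannot be told apart in these files.

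The study asked whether the fall of miR-1 under overload is needed for muscle growth. Its Ago2 data were an exploratory search for potential miR-1 targets, beside measurements of muscle size and gene expression. By the paper's own measurement, the mimic lessened the fall of miR-1 under overload and did not block it. Plantaris muscles came from male C57BL/6J mice of 5 months after 10 days of mechanical overload (MOV), in which the synergist muscles are removed and the plantaris has to carry their load. A lentivirus with a CMV promoter and a TurboGFP reporter was injected at surgery. The MOV control muscle received a control sequence and the MOV mimic muscle, on the opposite side, the miR-1a-3p mimic. CMV is a general promoter and not restricted to muscle fibres, and whether both libraries came from the same mouse was not stated. There was 1 library per group, so no value below has a replicate check and no test between the groups was possible. The files held 232408 chimeric reads in the MOV control and 259207 in the MOV mimic, and the input libraries were not analysed here. Intervals in brackets are 95% limits (exact binomial) that cover counting error only.

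Ago2 is the protein that carries a miRNA to its target, which it finds mainly through pairing of the miRNA seed, bases 2 to 8 from the 5′ end. In chimeric eCLIP Ago2 is pulled down after UV crosslinking and the miRNA is joined to the RNA fragment beside it, so that 1 read names both partners. The study's methods also describe a miR-1 specific version, in which a primer for mouse miR-1 amplifies the cDNA. Whether that step entered these libraries cannot be told from the methods, and its part in the miRNA shares was not tested. Ribosomal RNA is the most abundant RNA of the cell and is not translated, and it is often treated as background in assays of RNA binding proteins. In skeletal muscle the leading miRNAs are miR-1, miR-133 and miR-206, which are known as the muscle specific miRNAs or myomiRs.

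The mature sequences below belong to miRNAs on which the results turn. They were taken from RefSeq (GRCm38.p6) and are written 5′ to 3′ with the seed in capitals, and they are grouped by their behaviour at Rn18s-rs5. The first group is the muscle miRNAs and the second had a larger share at Rn18s-rs5 than elsewhere. The third had a larger share in 1 part of the gene than in its other parts, and the last is let-7, whose members share 1 seed. The groups are not exclusive. The third group also had larger shares at Rn18s-rs5 than elsewhere. Of the second group, miR-22-3p, miR-23a-3p and miR-378b were also frequent in 1 part of the gene.
miR-133b-3p: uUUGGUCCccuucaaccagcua
miR-206-3p: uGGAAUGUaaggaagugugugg
miR-22-3p: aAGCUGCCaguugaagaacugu
miR-378b: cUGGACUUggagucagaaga
miR-23a-3p: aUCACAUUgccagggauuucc
miR-126a-3p: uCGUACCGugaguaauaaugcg
miR-21a-5p: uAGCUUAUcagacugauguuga
miR-127-3p: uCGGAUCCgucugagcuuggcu
miR-140-3p: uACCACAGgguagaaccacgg
miR-25-3p: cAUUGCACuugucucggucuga
let-7c-5p: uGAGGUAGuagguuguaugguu
let-7f-5p: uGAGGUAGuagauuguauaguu
miR-1a-3p, miR-133a-3p, miR-378a-3p and miR-23b-3p are named only.

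Rn18s-rs5 held 15586 chimeric reads in the control, or 6.71% of the library [6.6 to 6.81], and 16604 in the mimic, or 6.41% [6.31 to 6.50]. These reads were concentrated in few entries, since the locus held only 1.69% of the entries in the MOV control and 1.85% in the MOV mimic. Without the reads of the mitochondrial chromosome in the total, the shares were 7.77% and 7.40%. Entries of at least 3 reads numbered 535 in the MOV control and 544 in the MOV mimic, and they held 93.3% and 93.0% of the locus reads. Entries of under 1 read made up 38.7% and 45.7% of the entries and held 1.98% and 2.28% of the reads.

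The peaks fell into 11 regions along the gene, made by joining peaks of either library that shared at least 1 nt, and they covered 654 nt or 35.4% of it. The control had 10 peaks in 8 of the regions and the mimic 14 peaks in all 11. Region 4 (chr17:39846850-39846936) was the strongest in both libraries, with 5670 reads in the MOV control and 4610 in the MOV mimic, or 36.4% and 27.8% of the locus reads. Its densest peak reached 83.5 reads per nt in the MOV control and 61.3 in the MOV mimic. Region 11 (chr17:39847727-39847838) came next with 3479 and 4016 reads, or 22.3% and 24.2%. Region 5 (chr17:39847017-39847109) followed with 1932 and 2141 reads.

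Outside regions 4, 5 and 11 the read density was even, between 11.5 and 17.3 reads per nt in the MOV control and between 12.9 and 18.7 in the MOV mimic. Regions 7, 9 and 10 were found in the mimic alone, with 146, 532 and 306 reads. Their densities were 16.2, 17.2 and 14.6 reads per nt, near those of the weaker peaks of both libraries. The control file held no entry there, and since it lists called peaks only, reads below the peak caller's limit cannot be seen.

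**Figure D1:**
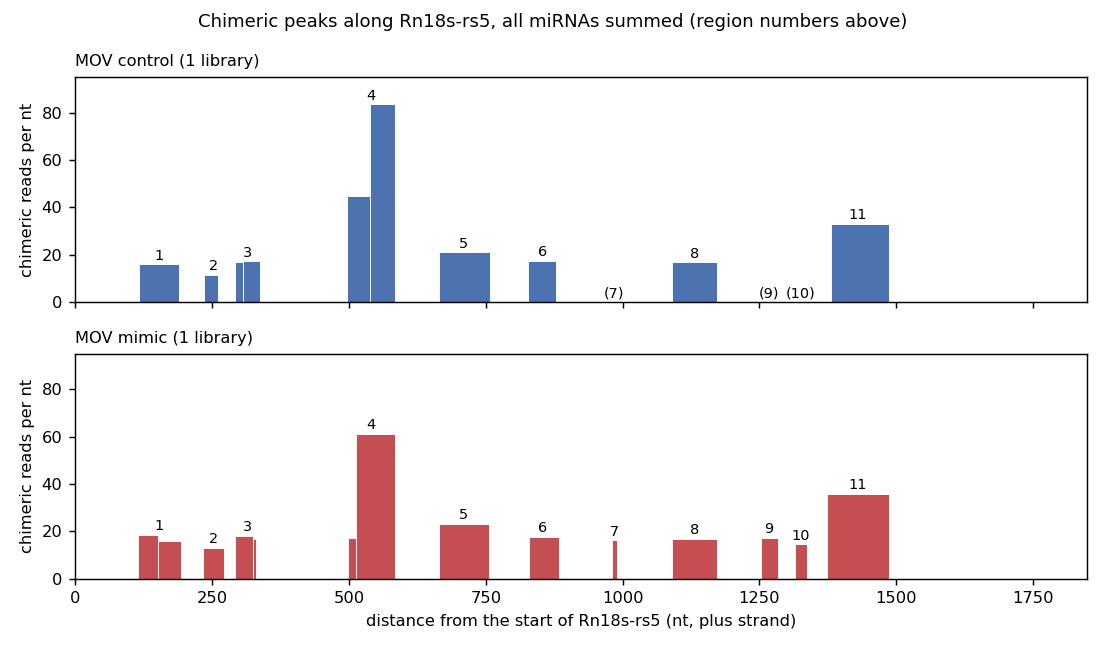
Chimeric reads per nt (y axis) of each peak against the distance in nt from the start of Rn18s-rs5 (x axis), for the MOV control (blue) and MOV mimic (red) library, with all miRNAs summed and region numbers above the bars (in brackets where the library had no peak). Region 4 stood highest in both libraries, at 83.5 and 61.3 reads per nt, and regions 7, 9 and 10 had a peak in the mimic alone.

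By the median, peaks on Rn18s-rs5 held more miRNA names than peaks of the same read class elsewhere. Among peaks of at least 1000 reads, the median was 181.5 names in the MOV control and 177 in the MOV mimic at the locus, against 56 and 63 in other nuclear peaks and 114 and 105 in mitochondrial peaks. These medians rest on 6 and 4 locus peaks, 3 and 7 other nuclear peaks, and 4 and 5 mitochondrial peaks. Reads were not matched within this class. Its mitochondrial peaks reached 139 names in both libraries, against minima of 124 and 122 at the locus. Among peaks of 200 to under 1000 reads the medians were 122.5 and 125.5 at the locus, 32 and 32.5 in other nuclear peaks, and 59 and 58 in mitochondrial peaks. Of the 10 peaks with the most names, 8 were on Rn18s-rs5 in each library. The leading miRNA of a locus peak of at least 1000 reads held between 12.7% and 26.9% of its reads in the MOV control and between 16.7% and 30.3% in the MOV mimic, while in other nuclear peaks of that size the medians were 50.1% and 51.7%.

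In all, 310 miRNA names were found at the locus in the MOV control and 326 in the MOV mimic, of which 263 were common to both. Of the names in 1 library alone, the one with the most reads was miR-199b-3p in the control, with 209 reads, and miR-199a-3p in the mimic, with 189. The mature sequences of this pair are identical, and together they had ratios near 1 to their share elsewhere, 0.961 [0.833 to 1.11] in the control and 1.01 [0.863 to 1.17] in the mimic. The counts over many miRNAs below keep the names apart, so neither name passed their minimum of reads in both libraries. The effective number of miRNAs (the exponential of the Shannon entropy of their shares) was 48.3 in the MOV control and 44.5 in the MOV mimic at the locus, and 36.7 and 33.3 elsewhere. The 10 leading miRNAs held 53.6% and 54.7% of the locus reads, against 59.6% and 61.6% elsewhere.

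**Figure D2:**
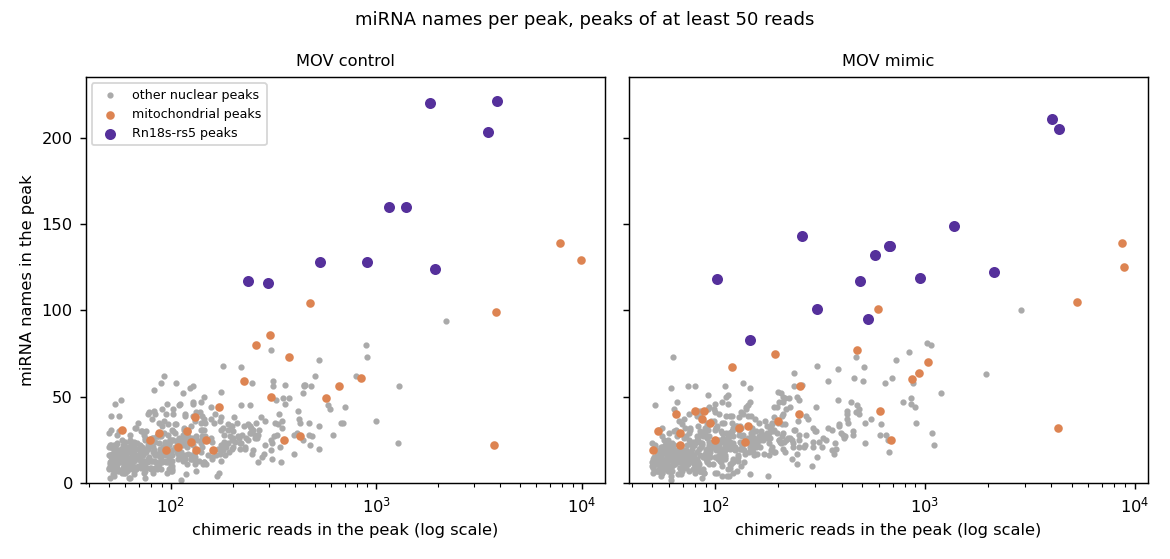
Number of miRNA names (y axis) against chimeric reads on a log scale (x axis) for each peak of at least 50 reads, in the MOV control (left) and MOV mimic (right) library. Peaks on Rn18s-rs5 (purple) lay above other nuclear peaks (grey) of like reads, and 8 of the 10 peaks with the most names were on this gene in each library.

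The miRNA makeup at Rn18s-rs5 was close to that of the rest of the library. The overlap of makeups, which sums over miRNAs the smaller of the shares at the gene and elsewhere, was 79.4% in the MOV control and 80.9% in the MOV mimic. In the other 8 genes of at least 3000 reads it ran from 2.33% for the mitochondrial tRNA gene TrnM to 61.1% for Ttn, the gene of the giant sarcomere protein titin, in the control. In the mimic the range was 2.42% to 65.0% for the same genes. The mitochondrial ribosomal RNAs stood lower than the locus, at 14.6% and 15.4% for mt-Rnr1 and 37.7% and 36.9% for mt-Rnr2.

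The ratio of a miRNA's share of the reads at the locus to its share elsewhere was then taken for the 37 miRNAs with at least 1000 reads elsewhere in each library. Only 2 of the 37 (5.41%) were at least 2-fold over at the locus in both libraries, and 3 (8.11%) at least 2-fold under. In the other 8 genes, 9.12% of 296 such ratios were over and 74.3% were under, so the locus differed from them mainly in how few miRNAs were under. Between 24 and 37 of the 37 miRNAs passed 2-fold in each of those genes. The counts depended on small entries. With entries of at least 3 reads they were 8 over and 5 under of the same 37. By entries in place of reads they were 0 over and 20 under. That last count is no check on the others, because a miRNA can have at most 1 entry per peak. This cap holds down the ratio of any miRNA with many entries elsewhere.

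Ratios were alike in both libraries. Of the 37 miRNAs, 33 were on the same side of 1 in both, 9 had intervals above 1 in both and 12 had intervals below 1 in both. Across these 37 miRNAs, which are not independent replicates and share their libraries, Pearson's r of the log2 ratios was 0.976 and Spearman's rho was 0.940.

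**Figure D3:**
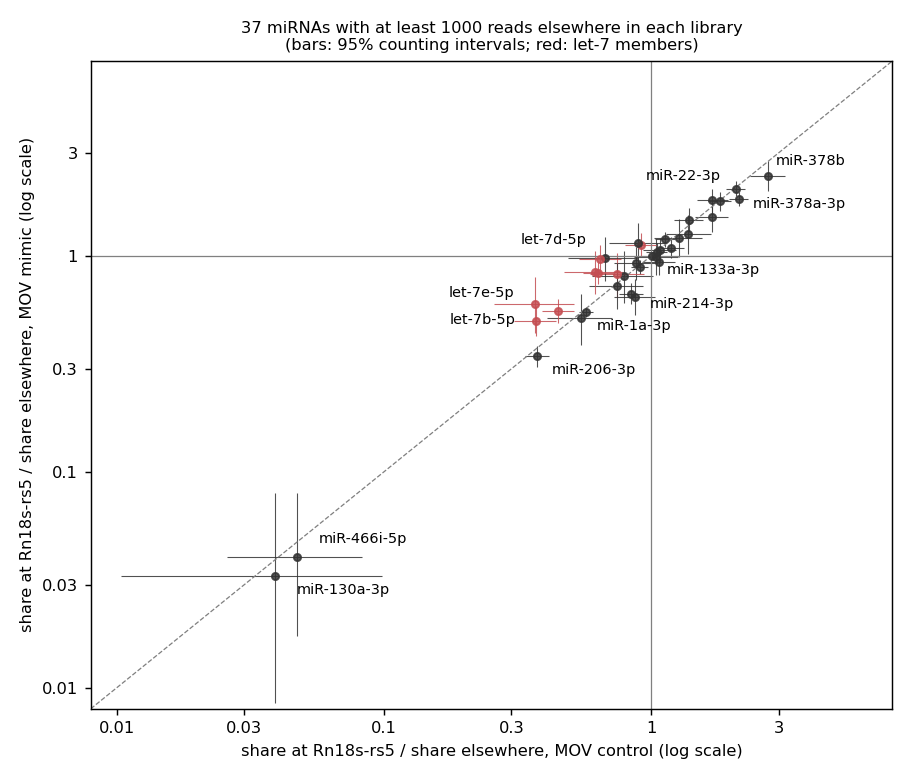
Ratio of the share at Rn18s-rs5 to the share elsewhere in the MOV mimic (y axis) against that in the MOV control (x axis), both on log scales, for 37 miRNAs with at least 1000 reads elsewhere in each library (points, with 95% counting intervals as bars and let-7 members in red). Most points lay near 1 and near the diagonal, miR-378b was highest at 2.74 and 2.35, and miR-130a-3p and miR-466i-5p were lowest, below 0.05.

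**Figure D4:**
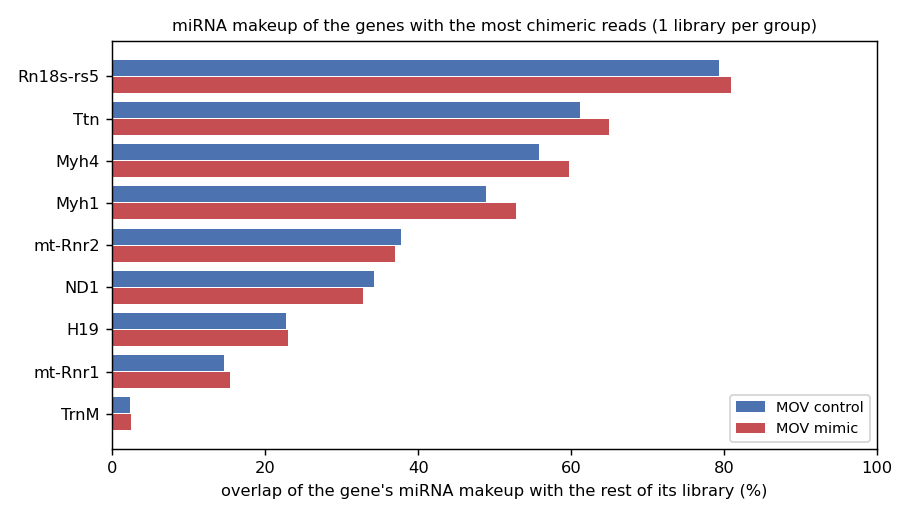
Overlap of the miRNA makeup of a gene with the rest of its library in percent (x axis) for the 9 genes with the most chimeric reads (y axis), in the MOV control (blue) and MOV mimic (red) library, with 1 library per group and no error bar. Rn18s-rs5 stood at 79.4% and 80.9%, and Ttn came next at 61.1% and 65.0%.

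The miRNAs over at the locus were led by miR-378b and miR-378a-3p, of which the latter is made from an intron of Ppargc1b, a coactivator gene of oxidative metabolism. miR-378b held 1.32% of the locus reads and 0.483% of the reads elsewhere in the control, a ratio of 2.74 [2.35 to 3.18], and its ratio in the mimic was 2.35 [2.0 to 2.76]. miR-378a-3p had ratios of 2.12 [1.96 to 2.31] and 1.83 [1.69 to 1.98]. miR-22-3p, a miRNA of striated muscle known from cardiac hypertrophy, held 4.28% of the locus reads and 2.06% of those elsewhere in the control, with ratios of 2.07 [1.91 to 2.25] and 2.05 [1.90 to 2.21]. Thus both miR-378b and miR-22-3p were above 2-fold in both libraries, and miR-378a-3p in the control alone. When pooled, miR-378a-3p and miR-378b had ratios of 2.24 [2.09 to 2.41] and 1.92 [1.79 to 2.05]. The pair was thus above 2-fold in the control alone, and the place of miR-378b rests on keeping the names apart.

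Smaller excesses were seen for miRNAs that are widely expressed. The ratios of miR-23a-3p were 1.81 [1.64 to 1.99] in the MOV control and 1.79 [1.62 to 1.98] in the MOV mimic, and those of its relative miR-23b-3p were 1.70 and 1.81. miR-125b-5p, a homologue of the worm lin-4 miRNA, had ratios of 1.69 and 1.51. miR-16-5p and miR-15a-5p, which share a seed and restrain cell cycle genes, had 1.38 and 1.47, and 1.38 and 1.26. All of these intervals were above 1 in both libraries. The miR-21a-5p ratio, a miRNA that increases in growing and injured tissue, was 1.13 [1.03 to 1.23] and 1.19 [1.1 to 1.30], and it was 2.34 and 2.61 without TrnM, which held more of the other miR-21a-5p reads than any other gene. Counted by entries in place of reads, the ratios of all 9 of these miRNAs were under 1 in both libraries, from 0.247 to 0.791. A miRNA can have at most 1 entry per peak, which holds down this ratio for miRNAs with many entries elsewhere.

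Among miRNAs with fewer reads elsewhere (at least 200 in each library), 7 were at least 2-fold over in both. The highest ratio was that of miR-140-3p, a miRNA known from cartilage, at 6.78 [5.25 to 8.62] in the MOV control and 8.72 [7.08 to 10.7] in the MOV mimic, from 99.5 and 152 locus reads. miR-127-3p, an imprinted miRNA, had ratios of 3.67 [3.16 to 4.25] and 4.96 [4.16 to 5.91], from 228 and 173 reads. The endothelial miR-126a-3p had 3.13 [2.63 to 3.69] and 2.64 [2.24 to 3.1]. The first pair was picked after its values were seen.

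Of the muscle miRNAs, miR-133a-3p and miR-133b-3p were nearer to their shares elsewhere than miR-1a-3p and miR-206-3p were. miR-133a-3p, which controls muscle cell proliferation, led the locus with 2898 reads (18.6%) in the MOV control and 3353 (20.2%) in the MOV mimic, and its ratio was 1.01 [0.973 to 1.05] and 1.0 [0.966 to 1.04]. It was 0.854 and 0.853 with entries of at least 3 reads, and 1.12 in both libraries without Ttn, so it moved to either side of 1. miR-133b-3p had 737 and 728 reads and ratios of 0.906 [0.840 to 0.977] and 0.886 [0.821 to 0.955]. Its direction was not firm, because without Ttn the ratios were 1.06 and 1.02.

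miR-1a-3p, the miRNA of the mimic, had 1083 locus reads in the MOV control and 1303 in the MOV mimic. It held 6.95% of the locus reads against 12.1% elsewhere in the control, and 7.85% against 14.3% in the mimic. Its ratios were 0.572 [0.538 to 0.608] and 0.551 [0.521 to 0.582], and 0.681 and 0.641 without mt-Rnr2, its richest gene. miR-206-3p, the myomiR of regenerating and slow muscle, shares its seed with miR-1 and was lower still, at 0.375 [0.338 to 0.413] and 0.344 [0.307 to 0.383]. For each read of miR-1a-3p there were 0.370 reads of miR-206-3p at the locus and 0.565 elsewhere in the control, and 0.255 and 0.408 in the mimic. The intervals of the locus and of the rest did not overlap in either library, so this pair differed at the locus although its members share a seed. Other pairs of close relatives went both ways. For each read of miR-133a-3p there were 0.254 [0.234 to 0.276] reads of miR-133b-3p at the locus against 0.284 elsewhere in the control, and 0.217 [0.200 to 0.235] against 0.245 in the mimic. The reads of miR-378b for each read of miR-378a-3p were 0.313 [0.266 to 0.367] against 0.243, and 0.247 [0.209 to 0.292] against 0.192. For miR-26b-5p over miR-26a-5p the interval at the locus lay below the value elsewhere in the control alone. For miR-23a-3p and miR-23b-3p, and for miR-27a-3p and miR-27b-3p, it included the value elsewhere in both libraries.

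The strongest deficits belonged to 2 miRNAs that had almost no reads at the locus. miR-130a-3p had 4.10 reads in the MOV control and 4.21 in the MOV mimic, with ratios of 0.0393 [0.0104 to 0.0980] and 0.0329. Most of its other reads, 89.2% in the MOV control and 91.9% in the MOV mimic, were on H19, an imprinted long noncoding RNA, and without that gene the ratios were 0.355 and 0.399. By entries in place of reads its ratios were over 1, at 1.87 and 1.73, so its direction depended on that choice. miR-466i-5p had 12.7 and 7.99 reads and ratios of 0.0475 and 0.0403. miR-26b-5p had 0.549 [0.409 to 0.712] and 0.513 [0.387 to 0.666], and miR-26a-5p, with the same seed, 0.840 [0.755 to 0.931] and 0.668 [0.598 to 0.746].

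The let-7 family, which restrains growth and proliferation genes, held 1136 locus reads in the MOV control and 1445 in the MOV mimic over its 9 listed members. Its share was 7.29% against 12.7% elsewhere in the control, a ratio of 0.573 [0.540 to 0.608], and 8.70% against 11.5% in the mimic, a ratio of 0.755 [0.715 to 0.796]. Without the mitochondrial chromosome in the reads elsewhere the ratios were 0.807 in the MOV control and 1.01 in the MOV mimic, so in the mimic the direction changed. On mt-Rnr1, the small ribosomal RNA of mitochondria, let-7 members led instead: let-7c-5p had 24.3% and 23.7% of that gene's reads, with ratios of 12.3 and 12.5, and let-7e-5p had ratios of 27.0 and 26.5. On mt-Rnr2, the large mitochondrial ribosomal RNA, miR-1a-3p held 56.2% and 64.0% of the reads. The nuclear and both mitochondrial ribosomal sequences thus differed in their leading miRNAs.

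The ratios of the let-7 members were not alike. let-7b-5p had ratios of 0.371 [0.307 to 0.440] and 0.501 [0.426 to 0.586], let-7c-5p 0.448 and 0.554, and let-7e-5p 0.368 and 0.598. let-7f-5p was nearest to its share elsewhere, at 0.915 [0.796 to 1.05] and 1.13 [0.994 to 1.27]. For each read of let-7c-5p there were 1.05 reads of let-7f-5p at the locus and 0.512 elsewhere in the control, and 1.08 and 0.533 in the mimic. The reads elsewhere included mt-Rnr1, which held more of the let-7b-5p, let-7c-5p and let-7e-5p reads than any other gene. Without mt-Rnr1 the ratios were 0.579 and 0.719 for let-7b-5p and 0.691 and 0.806 for let-7c-5p. For let-7e-5p they were 0.834 [0.581 to 1.17] and 1.22 [0.891 to 1.63]. The differences between members are thus not shown to belong to the locus alone. Without the mitochondrial chromosome the let-7e-5p ratio of the mimic turned to 1.15.

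Lists of miRNAs of other cell types were read at the locus beside the muscle list, which held 33.5% of the locus reads in the MOV control and 35.0% in the MOV mimic. The muscle list as a whole was under its share elsewhere, with ratios of 0.781 [0.759 to 0.803] and 0.769 [0.749 to 0.789]. Its member miR-486b-5p was over, at 2.33 and 1.69. Of the lists read, the muscle list held the most locus reads in both libraries, and miR-133a-3p led both. Locus reads in both libraries were found for 5 of 8 muscle, 2 of 2 endothelial and 5 of 5 blood and immune miRNAs. They were found for 3 of 5 smooth muscle and fibroblast miRNAs, where miR-199a-3p and miR-199b-3p were each named in 1 library alone. For other tissues it was 1 of 4, and for all miRNA names 263 of 659. Endothelial miRNAs held 187 reads (1.2%) and 199 reads (1.2%), with ratios of 2.93 [2.49 to 3.44] and 2.50 [2.14 to 2.91]. These ratios were 7.32 and 5.41 with entries of at least 3 reads, and 1.22 and 1.25 by entries in place of reads. Smooth muscle and fibroblast miRNAs were near their share elsewhere when pooled, at 1.1 [1.0 to 1.2] and 0.994 [0.904 to 1.09], but the members differed. The ratios were 1.69 and 1.25 for miR-143-3p, 1.84 and 2.24 for miR-145a-5p, and 0.872 and 0.646 for miR-214-3p. Blood and immune miRNAs had 135 and 103 reads with ratios of 1.33 [1.11 to 1.59] and 1.18 [0.955 to 1.44], and here too the members differed. The ratios were 0.789 and 0.810 for miR-142a-3p, 4.49 and 2.87 for miR-142a-5p, and 1.80 and 0.651 for miR-223-3p. They were 5.64 and 4.20 for miR-150-5p and 4.25 and 3.86 for miR-451a. miRNAs of other tissues had 37.2 and 21.0 reads, of which miR-124-3p held 35.4 and 21.0. The ratios of that list were also over 1, at 1.87 [1.29 to 2.63] and 1.77 [1.07 to 2.80]. In bulk muscle, fewer cells of a type and less of a miRNA per cell cannot be told apart, and the part of these cell types in the other ratios was not tested.

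Each region had its own miRNA makeup, and that makeup recurred in the other library. Over the 8 regions found in both, the overlap of a control region with the same region of the mimic was between 79.6% and 90.1%, with a median of 86.4%. With a different region it was between 34.2% and 75.8% over 56 pairs, with a median of 59.4%. All 8 control regions overlapped best with their own region. Of 47 miRNAs with at least 50 locus reads in each library, 33 had the same main region in both, and region 4 was the main region of 33 in the control.

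Region 1 (chr17:39846468-39846546) was led by miR-1a-3p, with 203 reads (17.7%) in the MOV control and 279 (20.6%) in the MOV mimic. Its share there was 2.91 times [2.48 to 3.39] that in the other regions in the MOV control and 3.07 times [2.67 to 3.50] in the MOV mimic. miR-206-3p, with the same seed, held 4.33% and 3.69% of this region. miR-140-3p had 57.6% and 55.9% of its locus reads in region 1. Its share there was 17.1 times [11.3 to 26.1] that in the other regions in the MOV control and 14.3 times [10.2 to 20.0] in the MOV mimic. In region 10 (chr17:39847668-39847688), found in the mimic alone, the same 2 miRNAs were frequent again, with 21.4% for miR-1a-3p and 9.26% for miR-140-3p.

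The let-7 family was concentrated in regions 2, 3 and 9. It held 31.2% and 27.7% of region 2 (chr17:39846587-39846624) and 43.7% [40.2 to 47.3] and 41.1% [37.4 to 45] of region 3 (chr17:39846645-39846689). In region 9 (chr17:39847605-39847635), seen in the mimic alone, it held 69.3% [65.3 to 73.3] of the reads. In the remaining regions of the control its share was between 3.28% and 5.92%. Within region 3 let-7f-5p led with 12.1% and 12.6%, while in region 9 let-7a-5p led with 20.7% and let-7c-5p had 15.3%, so the leading member was not the same in these let-7 regions.

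Region 5 stood out for miR-21a-5p and miR-127-3p. miR-21a-5p held 12.9% and 13.8% of its reads, which was 5.53 times [4.66 to 6.54] and 6.04 times [5.15 to 7.09] its share in the other regions. miR-127-3p held 8.66% and 6.6%, and 73.3% and 81.8% of all its locus reads were there. miR-133a-3p also reached a high share in region 5, 26.9% and 30.3%. In region 7 (chr17:39847334-39847342), which was 9 nt long and found in the mimic alone, miR-133a-3p held 73.4 of 146 reads, or 50.2%.

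Region 6 (chr17:39847180-39847235) was led by miR-22-3p, with 22.0% [19.3 to 24.8] in the MOV control and 23.1% [20.4 to 25.9] in the MOV mimic, against 3.2% and 3.39% in the other regions. miR-25-3p, of the miR-25 and miR-92 seed family, had 91.6% and 92.4% of its locus reads in region 11, from 70.9 and 65.3 reads in all. The family as a whole had 84.5% and 80.5% of its locus reads there. miR-23a-3p was frequent in region 4, at 4.91% and 4.88% against 1.83% and 1.90% in the other regions, and miR-378b had 57.0% and 59.4% of its locus reads there. In region 8 (chr17:39847443-39847525) miR-378a-3p held 7.74% and 8.52%, against 3.87% and 3.97% in the other regions.

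**Figure D5:**
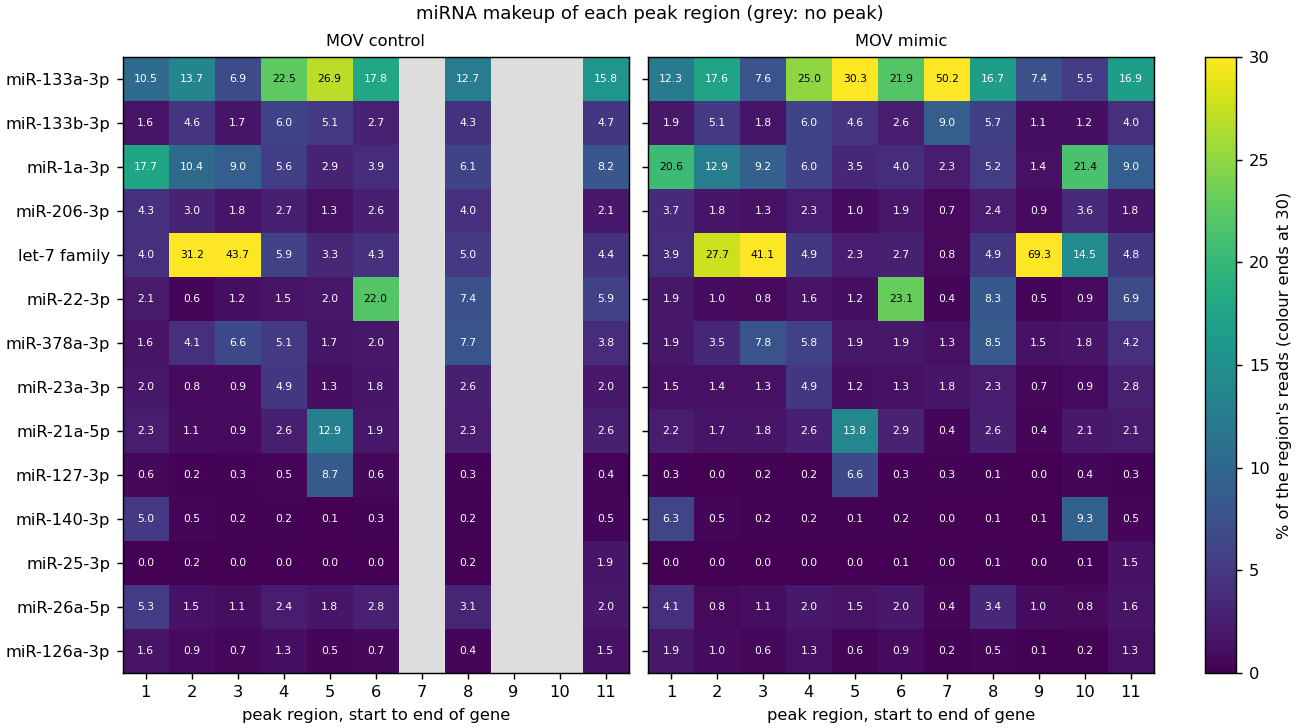
Share of each region's chimeric reads in percent (colour, with values printed) held by 13 miRNAs and the let-7 family (rows) in each of 11 regions from the start to the end of Rn18s-rs5 (columns), for the MOV control (left) and MOV mimic (right) library, with grey where no peak was called. The same cells were bright in both libraries: let-7 in regions 2 and 3, miR-22-3p in region 6, miR-21a-5p in region 5 and miR-1a-3p in region 1.

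Between the muscles, the locus changed little. Its reads were 1.07 times [1.04 to 1.09] as many in the mimic as in the control, and 0.952 times [0.931 to 0.973] after division by the reads elsewhere, which were 1.12 times as many. In the regions found in both libraries the ratio was 1.0 [0.980 to 1.02] before that division. Region 4 had fewer reads in the mimic, 0.813 times [0.782 to 0.845] the control, and region 11 had more, 1.15 times [1.1 to 1.21].

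miR-1a-3p reads at the locus were 1.2 times [1.11 to 1.31] as many in the mimic as in the control, and 1.31 times [1.29 to 1.33] elsewhere. After division by the reads elsewhere the locus value was 1.08 [0.991 to 1.17], an interval that held 1. By region, the ratio of miR-1a-3p reads was 1.38 [1.14 to 1.66] in region 1, 2.05 [1.30 to 3.23] in region 2, 1.26 [1.08 to 1.48] in region 11 and 0.871 [0.739 to 1.03] in region 4. The ratios of all miRNAs together ran the same way, at 1.18, 1.65, 1.15 and 0.813 in these regions, so the unevenness is not shown to belong to miR-1a-3p. miR-206-3p went the other way, with 0.829 times [0.715 to 0.962] as many reads at the locus and 0.950 times [0.928 to 0.972] elsewhere. When pooled, miR-1a-3p and miR-206-3p had 1.1 times as many locus reads in the mimic.

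let-7 reads at the locus were 1.27 times [1.18 to 1.38] as many in the mimic, against 1.01 elsewhere. Region 9, with 369 let-7 reads, was called in the mimic alone, and in the regions found in both libraries the ratio turned to 0.907 [0.833 to 0.987]. The let-7 difference thus lay in the peaks that only 1 of the files held.

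Single sites were taken as a miRNA in a region with at least 10 reads in each library. The share of sites at least 2-fold lower at the locus was near that of all sites. Of all 1984 sites of the libraries, 3.33% were at least 2-fold higher in the mimic after division by the library totals and 3.78% at least 2-fold lower. Of the 210 locus sites 0 were higher and 8 were lower, which is 3.81%. The lowest were miR-106b-5p, with 30.9 reads in the MOV control and 13.4 in the MOV mimic, and miR-143-3p, with 32.7 and 14.7. All 8 lay in region 4, the region with fewer reads in the mimic overall. The median log2 change was -0.18 at the locus and -0.01 elsewhere.

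Entries at the locus also recurred in the other library more often. An entry of the same miRNA overlapped in the mimic for 70.6% [68.3 to 72.9] of the control's locus entries and for 34.9% of its other entries. Among entries of under 1 read the shares were 46.6% and 23.0%, among those of 1 to under 3 reads 73.6% and 38.4%, among those of 3 to under 10 reads 93.6% and 79.9%, and among those of 10 reads or more 97.8% and 97.0%. Thus the locus was ahead among entries with few reads, and the gap was small at 10 reads or more. Entries were matched on their own reads and not on the reads of their peak. Mitochondrial peaks were not set apart, so recurrence is not shown to be particular to the locus. For the mimic's entries the shares were 62.8% at the locus and 32.1% elsewhere, but among those of 10 reads or more they were 91.9% and 97.0%, which includes entries in the regions that the mimic alone held.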

How the data were processed

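Chimeric eCLIP was measured in 4 libraries, and the 2 Ago2 libraries were used. The deposited values were estimated counts, 1 for each pair of peak and miRNA, which the study calls chimeric reads, not scaled to depth and mostly fractions whose origin is not stated. Per the methods, the authors removed adapters, filtered repetitive elements, aligned with STAR and called peaks with CLIPper. The submitters' processing notes name mm10, UMI-tools 1.1.1, cutadapt 3.2, STAR 2.7.7a, Bowtie 1.2.3 and HOMER 4.11. The methods name mm9, but the coordinates were those of GRCm38 (mm10). How much ribosomal sequence the repeat filter removed is not stated, so the locus share is that of the reads left.

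Shares, ratios and exact binomial limits (on rounded reads) were computed with Python 3.11.15, pandas 2.3.3 and scipy 1.17.1, and the interval was tested on simulated data. Genes came from RefSeq spans. Mature sequences were found for 313 of 373 miRNA names at the locus. PCR duplicates were removed by the authors, and limits cover counting error only. The members and lists were chosen with earlier results of these data known. Named miRNAs were the 10 with the most locus reads, and the 8 highest and 8 lowest control ratios among those with at least 1000 reads elsewhere, with the listed miRNAs; miR-140-3p, miR-127-3p, miR-25-3p, miR-106b-5p and the miR-25 and miR-92 family were added after their values were seen. Named regions held at least 1% of the locus reads in either library, and region 7 was added after its values were seen. Alternatives were minimum reads per entry, entries in place of reads, leaving out region 4 or the mitochondrial chromosome, and overlap rules. Chosen after seeing the data were the minimum of 200 reads elsewhere, regions found in both libraries, and leaving out the richest gene.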

Additional observations from a re-analysis of the deposited data

How the results depend on the processing

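No paired analysis was possible because only 1 library stood in either group. Of the values compared, 68 of the main ones stayed within their counting interval, 55 moved and 5 turned direction; the cause was not tested unless given. With entries of at least 1 read the locus share was 7.35% in the MOV control and 6.96% in the MOV mimic, and the ratio was 0.745 and 0.736 for muscle, 3.72 and 3.07 for endothelium and 1.21 for smooth muscle and fibroblast in the control. With at least 3 reads the locus share was 9.04% and 8.43%, with 134 and 127 miRNA names, ratios of 0.688 and 0.680 for muscle, 7.32 and 5.41 for endothelium and 1.56 and 1.39 for smooth muscle and fibroblast, 8 miRNAs over and 5 under, and 82.2% and 76.5% of entries recurring. Without region 4 the locus share was 4.37% and 4.71%, the ratios 0.724 and 0.725 for muscle and 0.634 and 0.881 for let-7, 1 miRNA was over, and mimic over control was 1.21, or 1.34 for miR-1a-3p. Without mitochondrial reads the locus share was 7.77% and 7.40%, and the ratios 0.807 and 1.01 for let-7, 0.992 for smooth muscle and fibroblast in the control, 1.72 and 1.52 for blood and immune cells, and 1.15 for let-7e-5p in the mimic.

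Counting entries in place of reads limits each miRNA to 1 entry per peak, and the locus had 10 and 14 peaks. By entries the ratios in control and mimic were 0.284 and 0.318 for miR-22-3p, 0.247 and 0.256 for miR-378a-3p, 0.307 and 0.388 for miR-21a-5p, 0.305 and 0.356 for miR-23a-3p, 0.588 and 0.723 for miR-378b, 0.413 and 0.446 for miR-23b-3p, 0.437 and 0.519 for miR-125b-5p, 0.356 and 0.464 for miR-16-5p, 0.639 and 0.791 for miR-15a-5p, 1.87 and 1.73 for miR-130a-3p and 1.22 and 1.25 for let-7e-5p. For the lists they were 0.138 and 0.161 for muscle, 0.466 and 0.537 for let-7, 1.22 and 1.25 for endothelium, 0.544 and 0.609 for smooth muscle and fibroblast and 2.16 and 2.70 for blood and immune cells, with 0 miRNAs over and 20 under.

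The following were chosen after seeing the data. In the regions found in both libraries the let-7 ratio of the mimic was 0.572, 6 miRNAs were under, and mimic over control was 1.0, or 0.907 for let-7. With at least 200 reads elsewhere 7 of 71 miRNAs were over and 3 under. Without the richest gene the ratios were 1.06 and 1.02 for miR-133b-3p and 1.22 for let-7e-5p in the mimic. Planned were the other scalings: after division by the reads elsewhere mimic over control was 0.952, 1.08 for miR-1a-3p and 1.14 for let-7 (the last chosen later), and 1.1 for miR-1a-3p with miR-206-3p. At 50% reciprocal overlap 54.7% and 46.2% of entries recurred.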

Other observations

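By shared seed, the pooled ratios of share at Rn18s-rs5 to share elsewhere, with groups chosen after their values were seen, were 3.79 [2.96 to 4.79] in the control and 3.49 [2.72 to 4.43] in the mimic for the miR-25 and miR-92 family (5 names), 2.65 [2.06 to 3.33] and 2.57 [2.04 to 3.22] for the miR-99 and miR-100 family (3 names), and 2.47 [2.05 to 2.97] and 2.03 [1.66 to 2.47] for the miR-17 and miR-106 family (6 names). The miR-29 family was near its share elsewhere, at 0.902 and 0.895. Among 31 miRNAs with at least 1000 reads elsewhere and a sequence, the median GC content of the mature miRNA was 45.5% for the 7 over at the locus in both libraries and 40.9% for the 10 under in both, against 40.9% for all. miR-365-3p held 13.2% of region 7 and 0.254% of the other regions in the mimic.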
